A study of Mus musculus with 5 samples.

Results

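Peaks inside 3 mouse genes, Tmem267, Tcte2 and Smo, were followed through 3 lists of called peaks from chromatin immunoprecipitation and sequencing (ChIP-seq). A peak was taken as a member when the authors named 1 of these genes beside it at a distance of 0. The rule found 24 of the 857 peaks of the wild-type H3K27ac list, 25 of the 844 peaks of the Egr1-deficient H3K27ac list and 24 of the 847 peaks of the wild-type EGR1 list. The genes were chosen because they hold several peaks each in these same lists, and were thus selected on peak number, so their peak numbers are a description and no test is attached to them.

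The cells were dendritic cells grown for 6 days from femoral marrow of C57BL/6J mice with 10 ng/ml GM-CSF. All of them had received 100 ng/ml LPS, a bacterial product sensed by Toll-like receptor 4, and 20 mM L-(+)-lactic acid for 24 h. The antibody was either against acetylated lysine 27 of histone H3 (H3K27ac), in wild-type (WT) and in Egr1-deficient (KO) cells, or against the transcription factor EGR1, in WT cells. Each list came from 1 library, so no difference between lists could be tested against the spread of replicates, and the lists hold no read counts, so depth is unknown. The sources used here do not say whether marrow of several mice was pooled or how Egr1 was inactivated. Input DNA of both genotypes was not analysed here.

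H3K27ac marks active promoters and enhancers, and EGR1 is a zinc finger protein of the immediate early response that binds GC-rich sites. Smo encodes Smoothened, the membrane protein that carries the Hedgehog signal once the receptor Patched is bound by ligand and that leads to activation of the Gli transcription factors. Tcte2 is a gene of the t complex on chromosome 17, a region known for variant haplotypes that distort transmission through sperm, and is named for its expression in testis. Tmem267 encodes a predicted multipass membrane protein on chromosome 13.

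Of the labelled cell type's markers, 1 of 15 dendritic cell genes had a peak inside it or within 2 kb, in each list. Of 21900 RefSeq protein-coding genes, 0.68% had such a peak in each H3K27ac list and 0.694% in the EGR1 list, so a short list of any kind would hold few genes with a peak. The marker with a peak was Csf2ra, which encodes a receptor subunit for the growth factor of these cultures. The peak inside it had low authors' scores, 2.26 in WT H3K27ac, 1.91 in KO H3K27ac and 2.17 for EGR1. The lowest score of any list was 1.65. The defining genes Itgax, Flt3, Zbtb46, Cd74 and H2-Ab1 had no peak inside or within 2 kb. None of 9 markers of macrophages, neutrophils or lymphocytes had a peak within 2 kb. Genes without a called peak may still carry the mark, so the identity of the cells could not be checked from these lists.

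The promoter of Tmem267 is shown first because it was the only promoter of the 3 genes that held a peak, although these peaks fell outside the rule. RefSeq (GRCm38.p6, the assembly of mm10) gives Tmem267 a start at 119488086 and another at 119488473 on the plus strand of chromosome 13. The first sequence holds the 250 bases before the first start, with the match to an EGR motif in capitals. The second holds the 250 bases before the second start, with the 157 bases covered by the WT H3K27ac peak in capitals. Both run 5′ to 3′ on the plus strand.
Tmem267 first start, chr13:119487836-119488085: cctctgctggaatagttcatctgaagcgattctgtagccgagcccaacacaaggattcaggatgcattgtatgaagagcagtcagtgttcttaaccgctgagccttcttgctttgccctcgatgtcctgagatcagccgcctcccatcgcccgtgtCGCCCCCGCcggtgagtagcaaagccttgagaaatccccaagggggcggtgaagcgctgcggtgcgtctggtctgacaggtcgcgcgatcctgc
Tmem267 second start, chr13:119488223-119488472: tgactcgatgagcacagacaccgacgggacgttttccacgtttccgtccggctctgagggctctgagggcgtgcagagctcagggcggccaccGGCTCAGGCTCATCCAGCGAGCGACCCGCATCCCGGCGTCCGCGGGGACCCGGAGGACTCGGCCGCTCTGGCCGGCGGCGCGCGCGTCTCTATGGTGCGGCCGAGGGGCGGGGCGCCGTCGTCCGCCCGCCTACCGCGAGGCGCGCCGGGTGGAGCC

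A peak lay over the second start of Tmem267 in every list. In WT H3K27ac it ran from 119488316 to 119488645 with a peak shape score of 3.43. This score and the p-value beside it are the authors' own and describe or rank peaks within a list. In KO H3K27ac it ran from 119488288 to 119488621 with a score of 2.30, and in WT EGR1 from 119488318 to 119488659 with a score of 3.56. The WT H3K27ac and EGR1 scores lay close together and the KO score lay below both. The score in KO was 0.671 of that in WT H3K27ac, and 2 of the 738 other peaks matched 1 to 1 between these lists had a lower ratio. WT H3K27ac peaks without a KO partner have no ratio and are left out of that rank, and 86.8% of the WT H3K27ac list matched. With 1 library per genotype this is a description of 2 libraries, and the peak was singled out after its values were seen.

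A weaker peak lay upstream of the first start of Tmem267, also in every list. It ended 162 bp before that start in WT H3K27ac, 169 bp before it in KO H3K27ac and 161 bp before it in WT EGR1. Its scores of 1.85, 2.10 and 1.99, in the same order, were near the lowest score of any list, 1.65. Here the KO score was the highest of the 3, the opposite order to the peak over the second start. The authors placed both peaks inside 3110070M22Rik, a gene of a long noncoding RNA that RefSeq places on the minus strand at 119487257 to 119488384, across the first Tmem267 start. On that strand its own start is at 119488384, which lies under the peak over the second Tmem267 start in every list. That peak can therefore not be assigned to Tmem267 rather than to 3110070M22Rik.

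**Figure D1:**
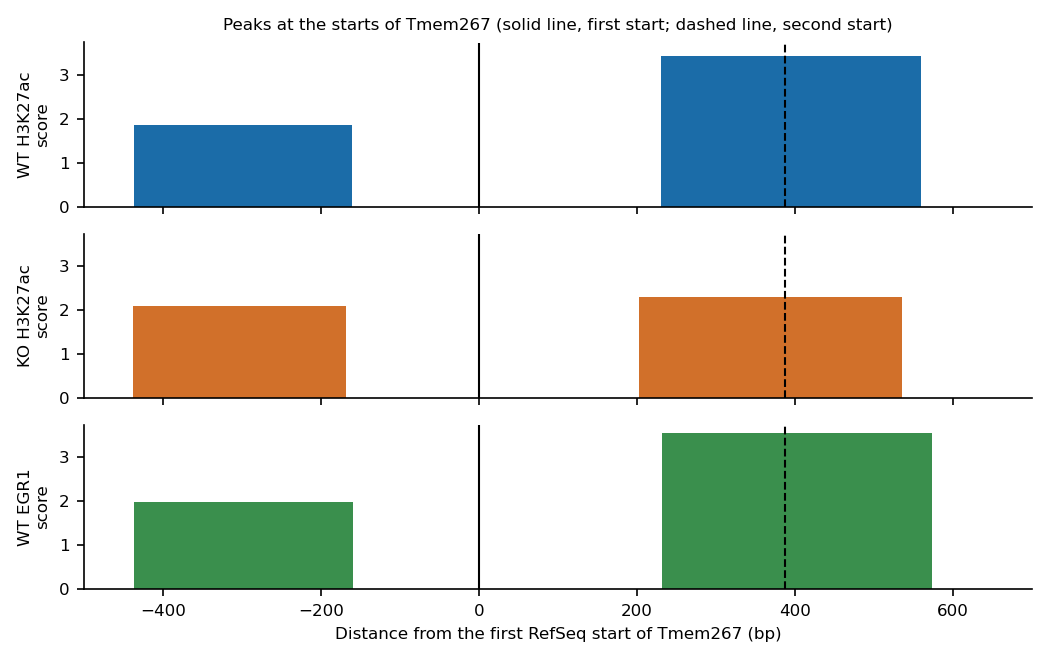
Peaks at the 2 RefSeq starts of Tmem267 in the 3 lists, with distance from the first start in bp on the horizontal axis and the authors' peak shape score on the vertical axis. The peak over the second start scored 3.43 in WT H3K27ac, 2.30 in KO H3K27ac and 3.56 for EGR1, and the upstream peak scored 1.85, 2.10 and 1.99.

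Peaks at RefSeq starts were rare in these lists. Of 32851 promoter windows, each from 250 bases before a start to 50 after it, a WT H3K27ac peak overlapped 18 (0.0548%), a KO H3K27ac peak 16 (0.0487%) and an EGR1 peak 19 (0.0578%). Both windows of Tmem267 were among them in each list. The nearest peak to the start of Smo lay 12314 bp away in WT H3K27ac, 12330 bp in KO H3K27ac and 12313 bp in EGR1. The nearest to the RefSeq start of Tcte2 lay 106302 bp, 106557 bp and 106300 bp away. So no peak inside Smo or Tcte2 lay in the promoter windows of those genes. For Tcte2 the RefSeq gene is one that its peaks do not overlap, and starts of other genes lay nearer, as given below.

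The EGR motif was searched as GCGNGGGCG on both strands of these windows. The first window of Tmem267 held 1 match, on the reverse strand, which begins 94 bases before the start and reads CGCCCCCGC on the plus strand. The second window of Tmem267, under the stronger peak, held none, nor did the windows of Smo and Tcte2. Of all 32851 windows, 5.55% held a match. The weaker upstream peak covered the first 89 of the 250 bases printed for the first start in WT H3K27ac, 82 of them in KO H3K27ac and 90 of them in EGR1, and so did not reach the match. All 4 windows were richer in G and C than the median window at 52.7%, with 58.7% and 76.0% for Tmem267, 72.0% for Tcte2 and 67.7% for Smo.

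The peaks that the authors place inside Tmem267 lay far from these starts, near the other end of the gene. RefSeq gives Tmem267 a span of 119488086 to 119610459 on chromosome 13, a length of 122374 bp. Each list had 12 peaks inside the gene, from 119595603 to 119603535 in WT H3K27ac, 119595606 to 119603524 in KO H3K27ac and 119595599 to 119603533 in EGR1. Their centres lay 88.0% to 94.3% of the way along the gene from its first start. The peak over the second start was the nearest peak outside the cluster, 106958 bp away in WT H3K27ac, and on the other side the next peak was 717837 bp away. No exon or intron positions were used here, so the peaks are placed by gene span only.

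The 12 Tmem267 peaks formed 1 run with short, uneven gaps. The median distance between neighbouring centres was 705 bp in WT H3K27ac (459 to 994 bp), 723 bp in KO H3K27ac (434 to 993 bp) and 705 bp in EGR1 (454 to 1005 bp). Peaks covered 47.0%, 46.8% and 47.1% of the run in the same order, and the nearest authors' gene on the far side, Gm21967, began 3114 bp beyond the last WT H3K27ac peak. The widest step was between peaks 8 and 9, counted from the lowest coordinate, and the narrowest between peaks 11 and 12, in both H3K27ac lists. In each whole list most neighbouring peaks were far apart, with a median of 654074 bp in WT H3K27ac, 611460.5 bp in KO H3K27ac and 714053 bp in EGR1. The share of all peaks with another within 1500 bp was 32.1%, 36.0% and 32.0%.

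**Figure D2:**
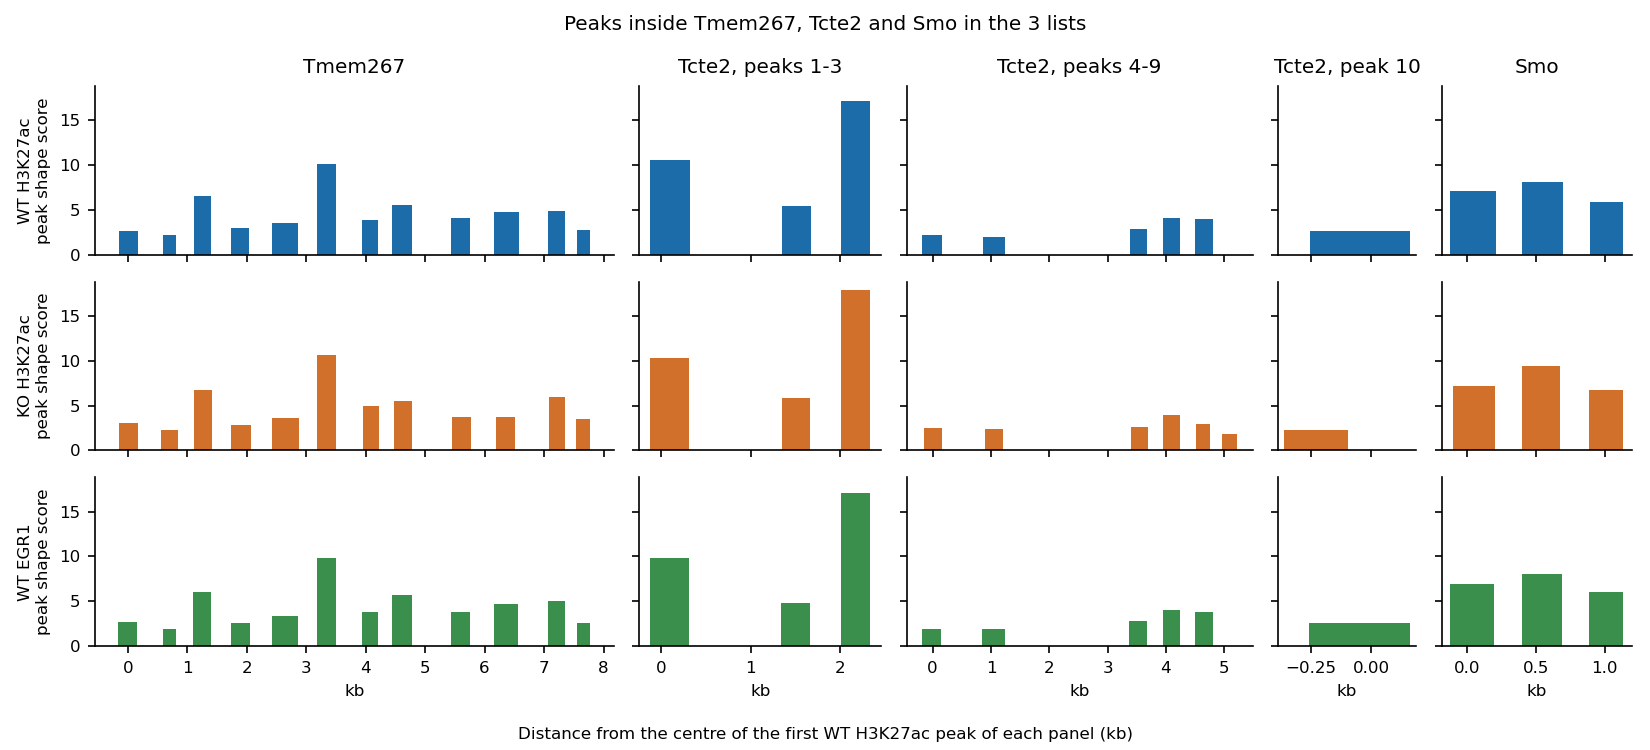
Position and score of each peak inside Tmem267, Tcte2 and Smo, 1 row per list, with distance from the first WT H3K27ac peak centre of each panel in kb and the authors' peak shape score as bar height. The 12 Tmem267 peaks and 3 Smo peaks recur in each row, and Tcte2 peak 9 appears in KO H3K27ac alone with a score of 1.85.

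Peak 6 led the Tmem267 cluster in all 3 lists. It lay at 119598943 to 119599261 in WT H3K27ac and scored 10.08, with 10.61 in KO H3K27ac and 9.82 in EGR1. Peak 3 came next in each list, with scores of 6.55, 6.70 and 6.05 in the same order. The third place was held by peak 8 in WT H3K27ac (5.59) and EGR1 (5.73), and by peak 11 in KO H3K27ac (5.94). At the low end, peak 2 scored 2.20, 2.28 and 1.92, the lowest of the cluster in every list. Scores thus spanned a wide range over less than 8 kb, and the leading and the lowest peaks were the same in the 3 lists.

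Between these extremes, 4 Tmem267 peaks differed most between the genotypes. Peak 7 scored 3.86 in WT H3K27ac, 5 in KO H3K27ac and 3.76 for EGR1. Peak 11 scored 4.92, 5.94 and 5.03, and peak 12 scored 2.76, 3.47 and 2.58. These 3 were higher in KO than in both WT lists. Peak 10 went the other way, with 4.78, 3.70 and 4.68, and was also shorter in KO at 326 bp against 418 bp in WT H3K27ac and 412 bp in EGR1. These 4 were picked for their difference between the genotypes. Over all 12 Tmem267 peaks the EGR1 score was the nearer of the 2 to the WT H3K27ac score in 7 (58.3%), and over the 24 peaks of the 3 genes in 16 (66.7%), beside 75.2% of 697 other peaks found in all 3 lists.

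The other 4 Tmem267 peaks had WT H3K27ac scores of 2.66 for peak 1, 2.94 for peak 4, 3.58 for peak 5 and 4.05 for peak 9. Peak 1 scored 3.03 in KO H3K27ac and 2.73 in EGR1. Peak 4 scored 2.81 and 2.60. Peak 5, the longest of the cluster at 431 bp in WT H3K27ac, scored 3.62 and 3.36, and peak 9 scored 3.75 and 3.83. Across the 12, the KO score was above the WT H3K27ac score for 8 and below it for 4, with a median difference, KO minus WT, of 0.115 (-1.08 to 1.14). The sources used here do not say how scores were scaled per library, so the sizes of these differences cannot be read as levels of acetylation.

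**Figure D3:**
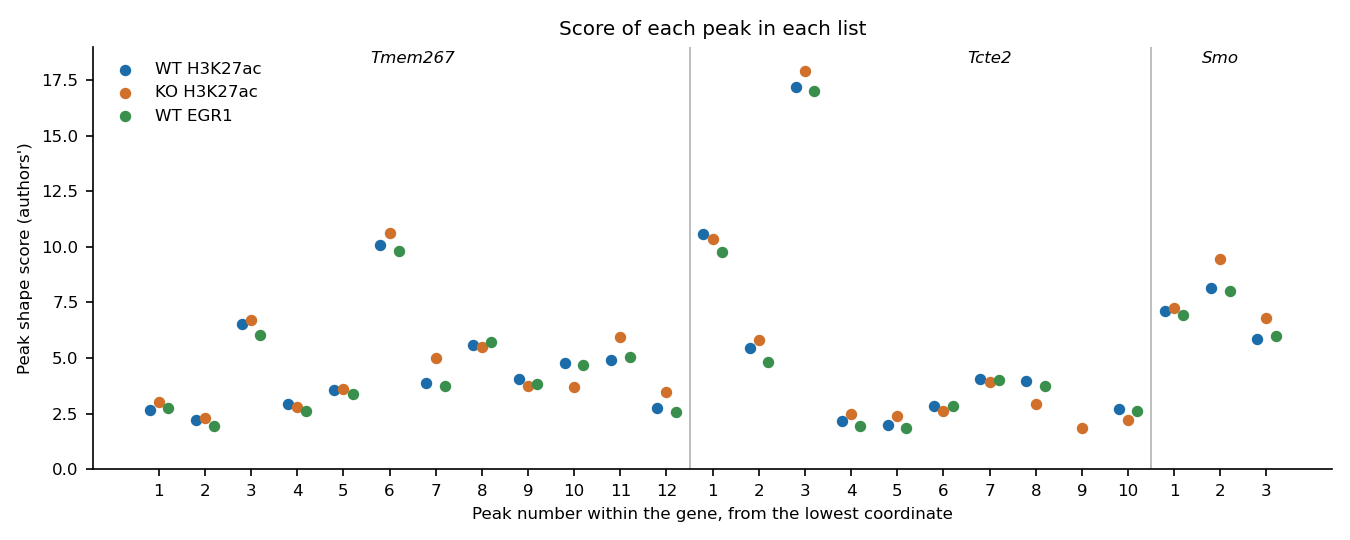
Peak shape score of every peak inside Tmem267, Tcte2 and Smo in each list, with peaks numbered within each gene from the lowest coordinate. Tcte2 peak 3 is the highest, at 17.20 in WT H3K27ac, 17.93 in KO H3K27ac and 17.04 for EGR1, and Tmem267 peak 6 leads its gene in each list.

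For Tcte2 the authors' placement and RefSeq disagreed. Inside Tcte2 the authors listed 9 peaks for WT H3K27ac, 10 for KO H3K27ac and 9 for EGR1, from 13550664 to 13655101 on chromosome 17 in WT H3K27ac. RefSeq gives Tcte2 at 13716436 to 13761403 on the minus strand, and no member peak of any list overlapped that span. The nearest, peak 10, lay 61335 bp from it in WT H3K27ac, 61590 bp in KO H3K27ac and 61333 bp in EGR1. Peaks 1 to 3 overlapped 2700054A10Rik, a gene of a long noncoding RNA at 13487021 to 13554094 on the minus strand. Its start is thus at 13554094, near peak 3, which ended at 13553121 in WT H3K27ac. Peaks 4 to 10 overlapped no RefSeq gene. Another long noncoding RNA gene, Gm41530, spans 13655846 to 13665688, near peak 10. All member peaks of Tcte2 are therefore inside it by the authors' annotation alone.

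The Tcte2 peaks fell into 3 groups more than 10 kb apart. The first held peaks 1 to 3 within 2458 bp in WT H3K27ac, the second peaks 4 to 8 within 4994 bp, and the third was peak 10 alone. The largest step between neighbouring centres was 63872 bp in WT H3K27ac, 63236 bp in KO H3K27ac and 63877 bp in EGR1. The median step was 1308.5 bp, 1056 bp and 1310.5 bp, wider than in Tmem267 in each list. The gene the authors name on the other side was Rnu6, a U6 small nuclear RNA gene, 118524 bp from peak 1.

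The first Tcte2 group held the peak with the highest score of the 3 genes in each list. This was peak 3, while peak 1 was above every Tmem267 and Smo peak in WT H3K27ac but below Tmem267 peak 6 in the other 2 lists. Peak 3, at 13552795 to 13553121 in WT H3K27ac, scored 17.20 there, 17.93 in KO H3K27ac and 17.04 in EGR1, and ranked 32, 29 and 32 in the lists. Peak 1, the longest at 438 bp, 431 bp and 433 bp, scored 10.59, 10.34 and 9.79. Peak 2, between them, scored 5.46, 5.83 and 4.80. The order of these 3 peaks was the same in each list.

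The second Tcte2 group, with no RefSeq gene under it, scored lower. Peak 7 scored 4.05 in WT H3K27ac, 3.90 in KO H3K27ac and 4 for EGR1. Peak 8 scored 3.96, 2.94 and 3.76, and its length differed by -66 bp between the H3K27ac lists, KO minus WT. Peak 6 scored 2.85, 2.60 and 2.83, so that all 3 of these were lowest in KO. Peak 4 scored 2.16, 2.47 and 1.96, and peak 5 scored 1.97, 2.37 and 1.87, both highest in KO. The median score of this group was 2.85 in WT H3K27ac, 2.535 in KO H3K27ac with peak 9 included, and 2.83 in EGR1.

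Peak 9 was listed in KO H3K27ac alone. It lay at 13591395 to 13591651, beside peak 8, was 257 bp long and scored 1.85, a score that 13.9% of the KO list fell below. It was the single peak of the 25 positions in the 3 genes that was not in all 3 lists. The sources used here do not describe the peak calling, and no deposited score in any list was below 1.65. The absence of peak 9 from the WT lists therefore does not show that the signal there was lower. Peak 10 was in all 3 lists but differed in shape. It ran from 13654689 to 13655101 in WT H3K27ac (score 2.70), from 13654584 to 13654846 in KO H3K27ac (2.23) and from 13654688 to 13655103 in EGR1 (2.61). The difference in length, KO minus WT H3K27ac, was -150 bp, and the pair shared 158 bp.

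Smo held 3 closely spaced peaks near its middle in each list. RefSeq places Smo at 29735497 to 29761366 on the plus strand of chromosome 6, a length of 25870 bp, and the centres lay 48.1%, 50% and 52.0% of the way along it in WT H3K27ac. The run extended from 29747811 to 29749067 in WT H3K27ac, from 29747827 to 29749064 in KO H3K27ac and from 29747810 to 29749068 in EGR1. Steps between centres were 504 and 508 bp in WT H3K27ac and 481 and 482 bp in KO H3K27ac. Peaks covered 69.2%, 67.6% and 68.9% of the run in the 3 lists, a denser run than in Tmem267. The nearest authors' gene on the far side was Gm13717, a pseudogene that RefSeq places inside the span of Smo, 1693 bp from peak 3 in WT H3K27ac.

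The middle Smo peak was the highest in every list. It scored 8.14 in WT H3K27ac, 9.45 in KO H3K27ac and 8.01 for EGR1. Peak 1 scored 7.13, 7.23 and 6.92, and peak 3 scored 5.84, 6.79 and 5.99. All 3 were higher in KO than in WT H3K27ac, by 0.10 to 1.31, and the differences of EGR1 from WT H3K27ac ran from -0.21 to 0.15. Unlike the other 2 clusters, the Smo cluster held no peak under a score of 5, and the nearest other peak of the WT H3K27ac list lay 1846767 bp away.

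Matching between lists was then counted for the 3 genes, with peaks called matched when they shared at least 1 bp. Intervals on shares are 95% exact Clopper-Pearson intervals, which cover counting error over peaks only, and neighbouring peaks of a gene are not independent. All 24 WT H3K27ac member peaks matched a KO H3K27ac peak (100%, interval 85.8 to 100), where the share over the whole list was 86.8%. In the other direction 24 of 25 matched (96.0%, 79.6 to 99.9), where the whole KO list gave 88.3%. The exception was Tcte2 peak 9. Peaks with high scores matched more often throughout these lists, and 16 of the 24 WT H3K27ac members scored 3 or more, so the members' shares are not read as particular to these genes. At that score 100.0% of the 411 peaks of the WT H3K27ac list matched a KO peak. With a minimum score of 2 all 24 remaining KO members matched a WT H3K27ac peak, where the whole KO list gave 95.9%, and with a minimum of 3 all 17 did, where it gave 99.0%.

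EGR1 and WT H3K27ac matched fully at the 3 genes. All 24 EGR1 member peaks matched a WT H3K27ac peak, where the whole list gave 97.0%, and all 24 WT H3K27ac peaks matched an EGR1 peak, where the whole list gave 95.9%. Likewise 24 of 24 EGR1 peaks matched a KO H3K27ac peak, against 87.7% of the whole list, and 24 of 25 KO peaks matched an EGR1 peak, against 88.2%. From a score of 2 all 24 KO members matched an EGR1 peak, against 95.6% of the whole list, and from a score of 3 all 17, against 99.0%. Regions listed for EGR1 at Tmem267, Tcte2 and Smo were thus all listed for H3K27ac in cells without Egr1. No antibody control in KO cells was analysed here, so EGR1 binding at these peaks could not be checked. Input DNA was not analysed either, so acetylation at these peaks could not be checked.

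Matched centres lay closest between the 2 WT lists. EGR1 and WT H3K27ac centres were the same base in 8 of 12 Tmem267 peaks, 2 of 9 Tcte2 peaks and 2 of 3 Smo peaks, and no pair was more than 11 bp apart. Over all 24 this was 12, or 50%, beside 36.2% of 790 other pairs. None of the 24 KO H3K27ac centres was at the same base as its WT H3K27ac partner, and 3.5% of 715 other pairs were. The median shift there was 7 bp in Tmem267, 22 bp in Tcte2 and 24 bp in Smo, beside 7 bp over the other pairs, and the largest was 207 bp, at Tcte2 peak 10. The EGR1 centre was the nearer of the 2 to the WT H3K27ac centre in 21 of 24 member peaks (87.5%), and in 551 of 697 other peaks found in all 3 lists (79.1%). At the 3 genes as in the rest of the lists, EGR1 centres thus lay nearer than KO centres to WT H3K27ac in most peaks. The median KO shift of Tmem267 equalled that of the other pairs, while those of Tcte2 and Smo, from 9 and 3 pairs, were larger.

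**Figure D4:**
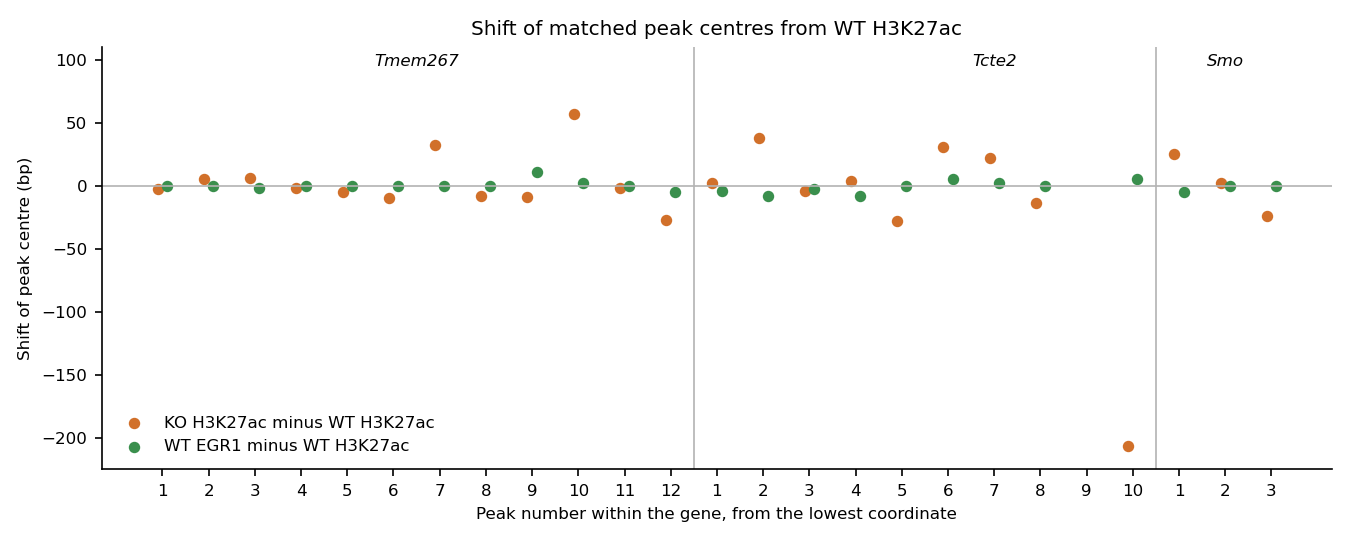
Shift of each matched peak centre from its WT H3K27ac partner in bp, for KO H3K27ac and WT EGR1, with peaks numbered within each gene. EGR1 centres stay within 11 bp, while KO centres move by up to 57 bp in Tmem267 and by 207 bp at Tcte2 peak 10.

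Lengths and scores differed among the genes and did not all follow the rest of the lists. KO peaks were shorter than their WT H3K27ac partner in 8 of 9 Tcte2 pairs, 2 of 3 Smo pairs and 5 of 12 Tmem267 pairs, against 81.4% of 715 other pairs. The median length difference, KO minus WT, was -22 bp in Tcte2, -18 bp in Smo and 1.5 bp in Tmem267, beside -12 bp over the other pairs. The KO score was higher in 15 of the 24 pairs (62.5%), beside 45.2% of the others. The EGR1 score was below the WT H3K27ac score in all 9 Tcte2 pairs, 9 of 12 Tmem267 pairs and 2 of 3 Smo pairs, beside 470 of 790 other pairs. Over the 24 pairs Spearman's rho of the scores was 0.987 for EGR1 and 0.951 for KO, each against WT H3K27ac, beside 0.987 and 0.945 over the other pairs. These are descriptions across peaks that share libraries and neighbouring sequence.

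Other genes with many peaks were set beside the 3 clusters. The 5 with the most peaks in WT H3K27ac were the predicted gene Gm26870 (53), the centrosome gene Sfi1 (23), C130026I21Rik (7), Erdr1 (5) and Gm21738 (5). The median step of Tmem267, 705 bp in WT H3K27ac, was near those of Gm26870 (630.5 bp) and Gm21738 (562.5 bp), and below those of Sfi1 (2063.5 bp) and Erdr1 (5636.5 bp). Smo, at 506 bp from 3 peaks, had the shortest of these 8 genes. In WT H3K27ac 16 genes held 3 or more peaks, and no other gene with as few peaks as Smo was compared. The peak number of Tmem267 was the same in the 3 lists, as were those of Smo and Gm21738, while C130026I21Rik had 7 in WT H3K27ac, 4 in KO H3K27ac and 6 for EGR1, and 3 of its 7 WT peaks matched a KO peak. No test was made of these differences.

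**Figure D5:**
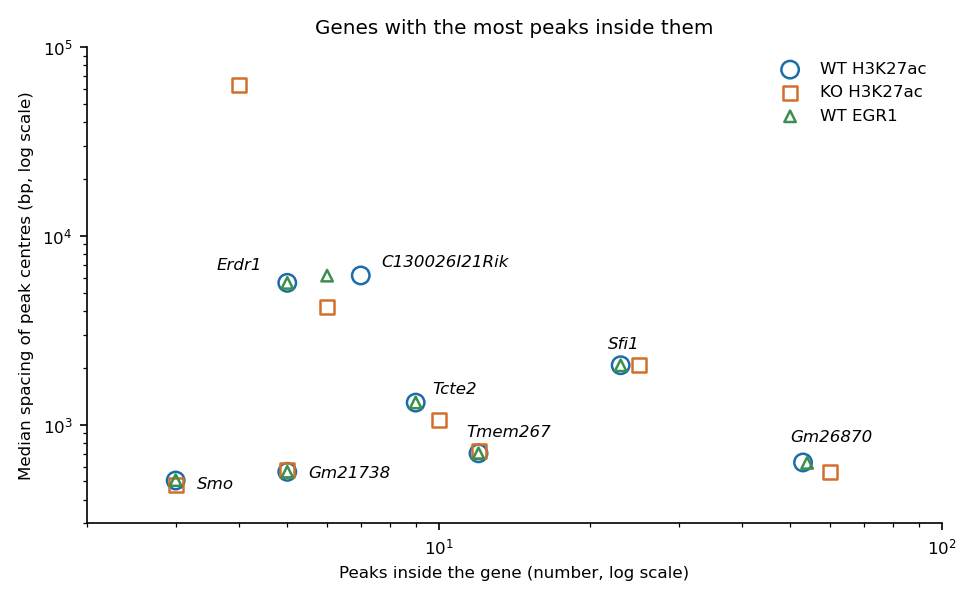
Number of peaks inside a gene against the median distance between neighbouring peak centres in bp, both on log scales, for Tmem267, Tcte2, Smo and the 5 other genes with the most WT H3K27ac peaks, with 1 symbol per list. Tmem267 has 12 peaks in each list, and the unlabelled square at the top is C130026I21Rik in KO H3K27ac, with 4 peaks. The square below Erdr1 is that gene in KO H3K27ac, with 6 peaks.

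Genes related to the 3 by pathway or position are given beside the 0.68% of protein-coding genes with a WT H3K27ac peak inside or within 2 kb, so the low counts are not read as particular to them. Of 30 symbols listed for the Hedgehog pathway, 29 were found in RefSeq. None of the 30, among them the receptor gene Ptch1, the Gli genes and the inhibitor gene Sufu, had a peak within 2 kb in any list. The one named beside a peak was Hhat, which encodes the acyltransferase that modifies Hedgehog ligands, 42462 bp from a WT H3K27ac peak. Of 30 symbols listed for the t complex or its region, 27 were found in RefSeq, and 1 had a peak inside its gene in each list. It was Rsph3b, a radial spoke protein gene, with scores of 2.74 in WT H3K27ac, 2.26 in KO H3K27ac and 2.60 for EGR1. Tcp10c, named for the t complex, was named beside the nearest peak below the Tcte2 cluster, 48302 bp from Tcp10c in WT H3K27ac, with scores of 23.18, 23.08 and 22.53. For the Tmem267 region 19 other gene symbols were listed, 17 of them found in RefSeq, and their positions were not checked. None of them, such as the chemokine gene Ccl28 and Nnt, had a peak within 2 kb.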

How the data were processed

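ChIP-seq peaks were analysed as the authors deposited them, 1 list per library. The build is mm10, per the submitters' processing notes. No source used here names the aligner, peak caller, filters or use of input. Peaks come with a region, centre, length, peak shape score, p-value and the gene and distance on either side, per the file headers. The deposited p-value is at most 0.05, and the deposited score at least 1.65, in every list. Scores are the authors' and describe peaks within a list. Depth is unknown.

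Peaks naming Tmem267, Tcte2 or Smo at distance 0 were selected, matched between lists by an overlap of at least 1 bp, and compared in centre, length and score where matched 1 to 1. No test was made, since each group has 1 library. RefSeq tables (GRCm38.p6) gave gene spans and promoter windows, and all 3 symbols matched. Sequence came from the promoter windows alone, so peaks outside them are shown without sequence. Named genes are the 3 members, the genes beside their peaks, list genes with a peak within 2 kb, and the 5 other genes with most peaks. Itgax, Flt3, Zbtb46, Cd74, H2-Ab1, Ptch1, Sufu, the Gli genes, Ccl28 and Nnt are named as list members without a peak. Hhat, Tcp10c, the peaks at the Tmem267 starts, 2700054A10Rik and Gm41530 were added after values were seen. The members and lists were chosen with earlier results of these data known. Matching was tested on simulated peaks spaced more widely than those inside Tmem267 and Smo and than most neighbours within the Tcte2 groups. Matching within such close runs was therefore not covered. Alternatives were gene distance, RefSeq span, score minimum, overlap rule and gap. Analysis used pandas 2.3.3, scipy 1.17.1, numpy 2.4.6 and matplotlib 3.10.9 under Python 3.11.15.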

Additional observations from a re-analysis of the deposited data

How the results depend on the processing

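Of 144 values recomputed with another setting, 126 stayed within 1.5 times the reported value (for shares, within its interval) and 18 did not. Counting peaks by RefSeq span left 0 inside Tcte2 in each list. A score minimum of 3 left 5 Tcte2 peaks for WT H3K27ac, 4 for KO H3K27ac and 5 for EGR1. A minimum of 2, or of 3, raised the share of KO Tcte2 peaks matched in WT H3K27ac and in EGR1 to 100%, since Tcte2 peak 9 falls out. Spacing as the gap between peaks, smaller by construction, had medians of 391, 357 and 380 bp in Tmem267 (WT H3K27ac, KO H3K27ac, EGR1), 193.5, 200.5 and 196 bp in Smo, and 866 and 862.5 bp in Tcte2 of WT H3K27ac and EGR1. Requiring 50% overlap, or centres within 50 bp, moved no share beyond its interval. Those intervals are wide, 66.4 to 100 for 9 Tcte2 peaks and 29.2 to 100 for 3 Smo peaks, so lost matches can stay within them. Under either rule the share of Tcte2 peaks of WT H3K27ac matched in KO fell from 100% to 88.9%. The share of KO Tcte2 peaks matched in WT H3K27ac fell from 90% to 80%. With centres within 50 bp, the Tmem267 shares between the H3K27ac lists fell from 100% to 91.7%. No paired analysis was possible because each group has 1 library. With no read counts, differences in signal below the calling threshold could not be seen.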
